A study of Mus musculus with 3 samples.

Results

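Intercalated cells are the acid-base cells of the connecting tubule and collecting duct of the kidney. The genes described here are 10 genes of those cells, chosen by name from the platform's gene symbols: Atp6v1b1, Atp6v0a4 and Atp6v1g3 of the proton pump, the anion exchangers Slc4a1, Slc26a4 and Slc26a7, the transcription factor Foxi1, the ammonia transporters Rhcg and Rhbg, and the carbonic anhydrase Car2. All 10 were found, each with 1 probe set, among 19938 genes on the array.

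Total RNA of kidney was measured on Affymetrix Mouse Gene 1.0 ST arrays, whose probes are spread over the exons of each gene. The mice were female, 8 to 10 weeks old and of the strain labelled CBL/6. The NTS/PGE2 array came from kidney of mice given 1 injection of sheep nephrotoxic serum (NTS) at 13.5 ug per g of body weight, then prostaglandin E2 (PGE2) at 5 ug per g daily from day 2. The NTS array came from mice given the serum alone, and the control array from non-treated mice. Serum-treated mice were killed on day 7, and the labels do not say how many animals each RNA came from or when the control kidney was taken. Nephrotoxic serum binds the glomerulus and starts an immune nephritis there, while the genes described here belong to cells further down the nephron. With 1 array per group no difference could be set against the spread between animals, no test was run, and precision is limited by there being 3 arrays in all.

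Type A intercalated cells secrete acid: carbonic anhydrase makes protons and bicarbonate, the vacuolar proton pump (V-ATPase) moves the protons into the urine, and the band 3 exchanger returns bicarbonate to the blood. Type B cells run the other way, with the exchanger pendrin facing the urine. Ammonia leaves the cells through Rh glycoproteins and traps the secreted protons, and Foxi1 is the forkhead factor that the identity of these cells depends on in mice.

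Foxi1 is known to act on genes of the pump and on Slc26a4 in mice, so the upstream regions of the 3 pump genes and of Slc26a4 are shown. They are the 250 bases before the RefSeq start in GRCm38.p6, read 5′ to 3′ on the gene's strand, and capitals mark the letters TGTTTA or TGTTTG, a short core of the forkhead motif, on either strand.
Atp6v1b1, chr6:83742767-83743016, plus strand: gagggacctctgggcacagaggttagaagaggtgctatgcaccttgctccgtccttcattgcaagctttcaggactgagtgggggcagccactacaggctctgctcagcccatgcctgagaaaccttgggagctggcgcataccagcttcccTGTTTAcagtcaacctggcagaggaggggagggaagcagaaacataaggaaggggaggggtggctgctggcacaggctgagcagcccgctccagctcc
Atp6v0a4, chr6:38124587-38124836, minus strand: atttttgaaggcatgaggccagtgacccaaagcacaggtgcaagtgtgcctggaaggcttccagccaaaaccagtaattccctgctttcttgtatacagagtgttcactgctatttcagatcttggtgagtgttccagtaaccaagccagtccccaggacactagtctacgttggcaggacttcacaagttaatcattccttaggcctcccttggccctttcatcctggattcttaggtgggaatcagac
Atp6v1g3, chr1:138273488-138273737, plus strand: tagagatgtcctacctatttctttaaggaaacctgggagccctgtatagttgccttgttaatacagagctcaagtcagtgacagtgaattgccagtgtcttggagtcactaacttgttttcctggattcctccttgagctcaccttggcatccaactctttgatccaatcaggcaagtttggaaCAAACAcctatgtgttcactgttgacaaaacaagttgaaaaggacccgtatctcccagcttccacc
Slc26a4, chr12:31559985-31560234, minus strand: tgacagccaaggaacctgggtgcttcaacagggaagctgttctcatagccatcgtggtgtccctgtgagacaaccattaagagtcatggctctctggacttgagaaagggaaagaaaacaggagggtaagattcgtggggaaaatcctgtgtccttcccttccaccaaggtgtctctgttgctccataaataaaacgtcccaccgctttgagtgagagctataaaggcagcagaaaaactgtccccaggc

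The RefSeq promoter table matched 6 of the 10 genes, the 4 above with Foxi1 and Rhcg; Slc4a1, Slc26a7, Rhbg and Car2 were not matched. The letters stood in 2 of these 6 regions, and the upstream regions of 25.3% of 32851 promoters in the table held them as well. In Atp6v1b1 the match was TGTTTA on the gene's strand, 98 to 93 bases before the start, a sequence found on either strand in 12.0% of promoters. In Atp6v1g3 it was TGTTTG on the opposite strand, which reads CAAACA here, 66 to 61 bases before the start; 16.0% of promoters held it. The 2 sequences searched do not overlap each other at these places. They were picked with the promoters in view, and a match describes letters and no binding site.

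Every one of the 10 genes read lower in NTS kidney than in control kidney. The difference was largest for the bicarbonate exchanger Slc4a1 and for the ammonia transporters Rhcg and Rhbg, at 3.61-, 3.55- and 3.22-fold lower, and smallest for Car2 and the pump subunit Atp6v0a4. On the NTS/PGE2 array 9 of the 10 read higher than in NTS kidney, and 9 of the 10 lay within 0.30 log2 units of control, Rhbg being the exception. The plot of levels shows every value.

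**Figure D1:**
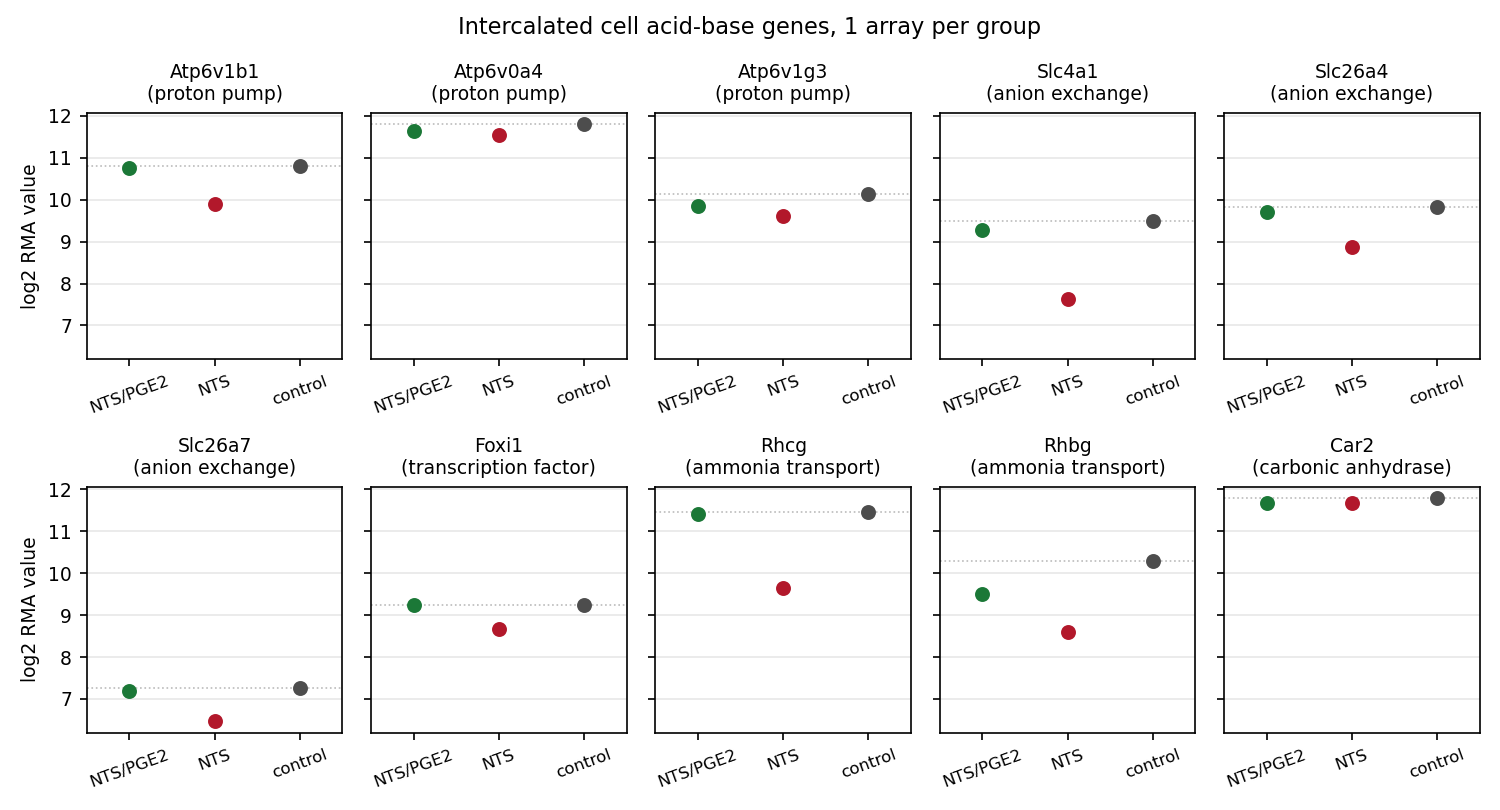
Log2 RMA value (vertical axis) of each of the 10 genes on the NTS/PGE2, NTS and control arrays (1 point per array); the dotted line marks the control value. The NTS point lies below the control point in every panel, with differences from control between -1.85 for Slc4a1 and -0.12 for Car2.

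Genes dim in both kidneys were left out of a comparison: the brighter value had to reach the array's median over probe sets, 7.14, 7.11 and 7.11 on the NTS/PGE2, NTS and control arrays. Differences of 2-fold or more, 1 unit on the log2 scale, were counted by this rule of size. All 10 genes passed in the 3 comparisons. Slc26a7 passed through the control and NTS/PGE2 arrays, its NTS value lying below the median of that array. As a gauge of technical spread, genes with 2 bright probe sets gave an SD of 1 probe set's difference of 0.19 for NTS versus control, 0.19 for NTS/PGE2 versus NTS and 0.12 for NTS/PGE2 versus control, over 469, 465 and 476 genes. It may include real differences between transcripts, and it leaves out the spread between animals. RMA's median polish can give exactly equal values on several arrays, as it did for 25.4% of probe sets on all 3, so an equal value does not show an equal level.

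For NTS versus control, 3 of the 10 genes were at least 2-fold lower and 0 at least 2-fold higher, where 5.41% of 11787 genes tested were at least 2-fold lower and 2.7% at least 2-fold higher. The median difference of the 10 was -0.86 on the log2 scale, against 0 for all genes tested. All 10 were below 0, as were 40.6% of genes tested. At 1.5-fold, 6 of the 10 were lower, with 11.9% of genes tested: the 3 above and Slc26a4, Atp6v1b1 and Slc26a7. In a bulk sample, fewer intercalated cells and less RNA per cell cannot be told apart. A tubular injury gene and a macrophage gene were highest in NTS kidney, where the 10 genes read lower than in control kidney. The tubular injury gene Havcr1 read 7.50 in NTS/PGE2 kidney, 12.63 in NTS kidney and 6.77 in control kidney. The macrophage gene Cd68 read 7.58, 10.34 and 8.12 in the same kidneys. Their part in the values of the 10 genes was not tested.

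For NTS/PGE2 versus NTS, 2 of the 10 genes, Rhcg and Slc4a1, were at least 2-fold higher and 0 at least 2-fold lower; 4.14% of 11730 genes tested were at least 2-fold higher and 3.27% at least 2-fold lower. The median difference was 0.78 on the log2 scale, against 0 for all genes tested. Of the 10, 9 were above 0, as were 39.7% of genes tested. At 1.5-fold the count was 6, made up of Rhcg, Slc4a1, Rhbg, Atp6v1b1, Slc26a4 and Slc26a7, with 9.95% of genes tested. This comparison shares the NTS array with the first, so the 2 sets of values are not independent.

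For NTS/PGE2 versus control, 0 of the 10 genes were at least 2-fold different, with 0.657% of 11571 genes tested at least 2-fold lower and 0.0605% at least 2-fold higher. The median was -0.11 on the log2 scale, against 0 for all genes tested, and 9 of the 10 were below 0, as were 41% of genes tested. Rhbg alone was at least 1.5-fold lower, as were 2.14% of genes tested. This comparison shares an array with each of the other comparisons.

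**Figure D2:**
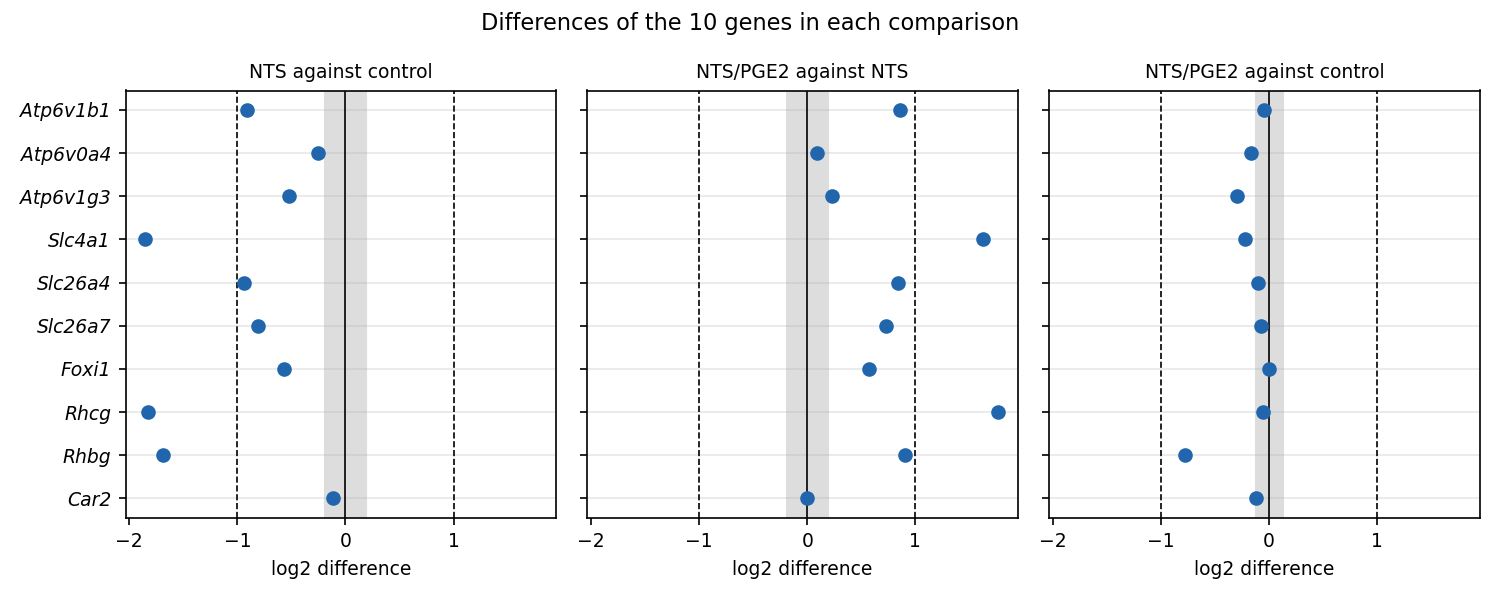
Log2 difference (horizontal axis) of the 10 genes in the 3 comparisons, 1 point per gene; the grey band is 1 SD of a probe set's difference between probe sets of the same gene, and the dashed lines mark 2-fold. Slc4a1, Rhcg and Rhbg lie beyond 2-fold in the left panel, and Rhbg stands apart at -0.78 in the right panel.

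Of the proton pump, Atp6v1b1 encodes the B1 subunit of the cytosolic V1 part and is mutated in human distal renal tubular acidosis with deafness. It read 10.75 in NTS/PGE2 kidney, 9.89 in NTS kidney and 10.80 in control kidney. The NTS value was 1.87-fold below control and the NTS/PGE2 value was nearly that of control, with a difference of -0.04 on the log2 scale.

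Atp6v0a4 encodes the a4 subunit of the membrane part, V0, and mutations in it cause the same kind of human acidosis. It read 11.63 in NTS/PGE2 kidney, 11.54 in NTS kidney and 11.80 in control kidney. The NTS difference from control, -0.25 on the log2 scale, was little above the probe set SD of 0.19, and the difference between NTS/PGE2 and NTS, 0.09, was below it. Atp6v1g3 encodes the G3 subunit of the stalk that joins the pump's parts. It read 9.85 in NTS/PGE2 kidney, 9.62 in NTS kidney and 10.15 in control kidney, so its NTS/PGE2 value lay between the other two and was 0.29 log2 units below control.

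The B, a and G subunits each have a widely expressed relative that serves lysosomes and other compartments. For NTS versus control, Atp6v1b2 differed by -0.11, Atp6v0a1 by 0.58 and Atp6v1g1 by 0.16 on the log2 scale. The gap of the isoform to this relative was -0.80 for Atp6v1b1, -0.83 for Atp6v0a4 and -0.69 for Atp6v1g3, where the SD of a gap between 2 probe sets of the same gene was 0.27. The value for Atp6v0a4 rests on the choice of Atp6v0a1, the highest of the a subunits. Its gap was -0.27 to the a2 gene Atp6v0a2 and -0.32 to the a3 gene Tcirg1, a pair set beside it after their values were seen, and these gaps are about 1 SD. Between NTS/PGE2 and NTS the gaps were 0.97, 0.81 and 0.78, with the relatives at -0.10 for Atp6v1b2, -0.72 for Atp6v0a1 and -0.54 for Atp6v1g1. Here too the gap of Atp6v0a4 was smaller to the other a subunits, at 0.05 to Atp6v0a2 and 0.15 to Tcirg1, both within the SD of 0.27. These gaps share the NTS array with the first set.

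The list of other V-ATPase subunits and accessory proteins held 21 measured genes of 22. For NTS versus control, 1 of these was at least 2-fold lower, 0 were at least 2-fold higher and the median was 0. The lower gene was Atp6v1c2, a C subunit isoform of few tissues with kidney among them, which read 8.77 in NTS/PGE2 kidney, 7.83 in NTS kidney and 8.93 in control kidney. Atp6v1d, of the central stalk, differed by -0.71 and Atp6v0e2 by -0.45 on the log2 scale. Of the 21, 9 were below 0, 8 above 0 and 4 equal. Among those above 0 was the d2 subunit gene Atp6v0d2, at 0.14. For NTS/PGE2 versus NTS, Atp6v0d2 differed by -0.41, with 9 of the 21 above 0 and 8 below. None of the 21 passed 2-fold for NTS/PGE2 versus NTS (0 higher and 0 lower), and the median was 0.

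**Figure D3:**
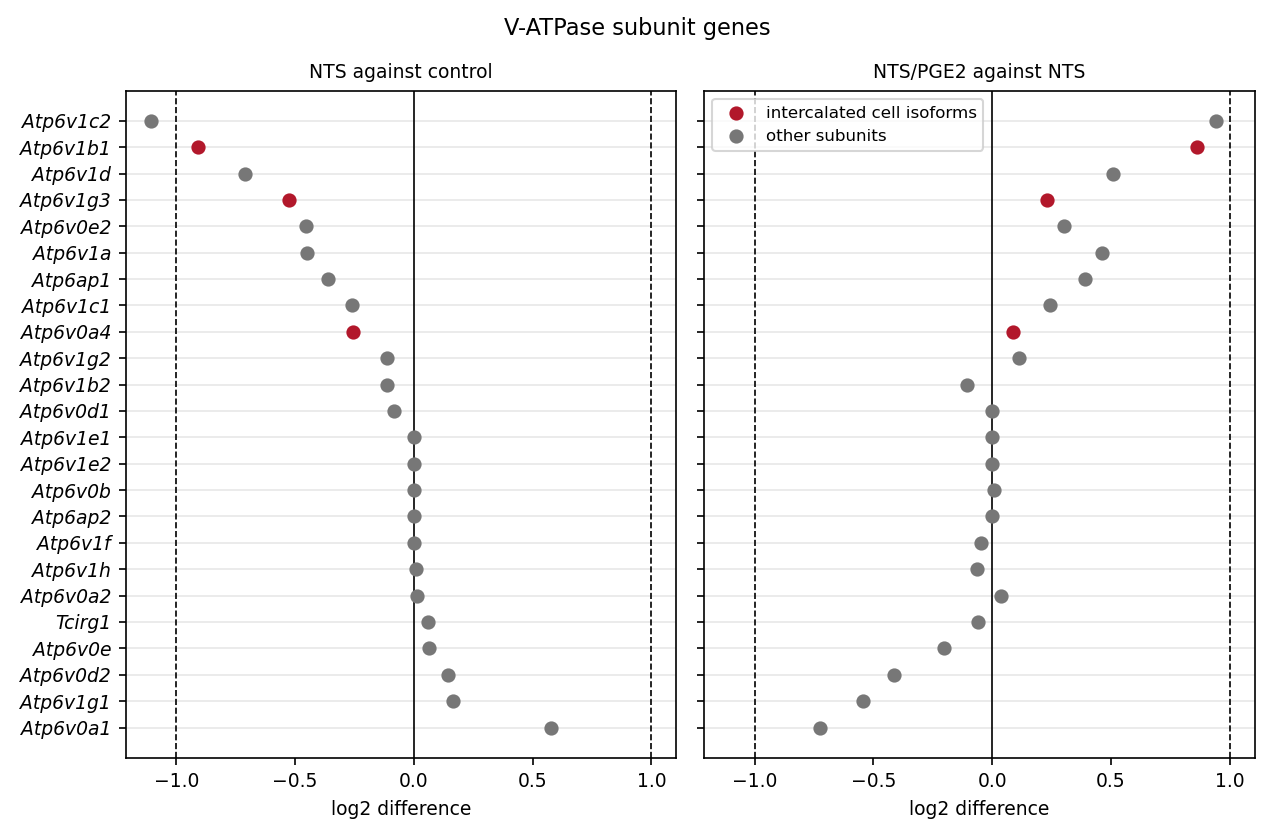
Log2 difference (horizontal axis) of 24 V-ATPase genes for NTS versus control and for NTS/PGE2 versus NTS, ordered by the first, with the 3 intercalated cell isoforms in red and dashed lines at 2-fold. Atp6v1c2 and Atp6v1b1 have the lowest values on the left, and Atp6v0a1 the highest at 0.58.

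Slc4a1 encodes band 3 (AE1), the chloride-bicarbonate exchanger of the blood side of type A cells and of the red blood cell membrane. It read 9.27 in NTS/PGE2 kidney, 7.64 in NTS kidney and 9.49 in control kidney. The NTS value was 27.7% of control on the linear scale and the NTS/PGE2 value 85.7%. Of 11787 genes tested for NTS versus control, 157 had a difference as low as or lower than that of Slc4a1.

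Red blood cells also make Slc4a1, and its 1 probe set did not separate the kidney and red cell transcripts. Of 17 listed red cell genes 8 were measured by single-gene probe sets, with the globin genes not among them. Alas2, which starts heme synthesis in red cell precursors, moved with Slc4a1: it read 9.07 in NTS/PGE2 kidney, 7.27 in NTS kidney and 10.02 in control kidney. The other 7 had differences between 0 and 0.30 for NTS versus control, highest in Epb42 at 0.30, Sptb at 0.13 and Klf1 at 0.05. Of the 8, 4 (Epb42, Ank1, Kel and Gata1) lay below the median of every array, so their values may be near background, and Kel lay below the 25th percentile. The summed linear level of the 8 genes was 1377 in NTS/PGE2 kidney, 1072 in NTS kidney and 1914 in control kidney, and without Alas2 it was 841, 917 and 873 on the same arrays. Among the Rh relatives, the red cell gene Rhag read 4.51 on all 3 arrays, also below the 25th percentile. The part of red cell RNA in the Slc4a1 values was not tested.

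Slc26a4 encodes pendrin, the chloride-bicarbonate exchanger of the urine side of type B cells. It read 9.71 in NTS/PGE2 kidney, 8.88 in NTS kidney and 9.82 in control kidney, so the NTS value was 1.92-fold below control and 1.79-fold below NTS/PGE2. Slc26a7 encodes an anion transporter on the blood side of type A cells in the outer medulla. It read 7.20 in NTS/PGE2 kidney, 6.47 in NTS kidney and 7.27 in control kidney. Its NTS value was 1.75-fold below control, and it stood at percentile 38.1 of the probe sets of the NTS array, so its separation from background is uncertain.

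Of 18 measured relatives in the SLC4, SLC26 and Rh families and of Foxi1, 1 was at least 2-fold lower and 0 at least 2-fold higher for NTS versus control, and the median was 0. The lower gene was Slc26a1, a sulfate transporter of the proximal tubule, at 8.96 in NTS/PGE2 kidney, 8.15 in NTS kidney and 9.39 in control kidney. The next were Slc4a11 at -0.28, Slc26a2 at -0.25 and Slc4a5 at -0.24. The widely expressed exchanger gene Slc4a2 read 8.94 on all 3 arrays. Only 8 of the 18 were bright enough for the filter, and 7 had exactly equal values on the NTS and control arrays.

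Rhcg encodes an ammonia channel of the urine and blood sides of intercalated and principal cells. It read 11.41 in NTS/PGE2 kidney, 9.64 in NTS kidney and 11.47 in control kidney. Between NTS/PGE2 and NTS it had the largest difference of the 10, 1.77 on the log2 scale or 3.40-fold, and 132 of 11730 genes tested had one as high or higher.

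Rhbg encodes the related ammonia transporter of the blood side. It read 9.51 in NTS/PGE2 kidney, 8.61 in NTS kidney and 10.29 in control kidney, so the NTS/PGE2 value stood between the others and was 1.72-fold below control. Of 11571 genes tested for NTS/PGE2 versus control, 132 had a difference as low or lower. The pair differed little for NTS versus control, where the difference of Rhbg was 0.14 above that of Rhcg on the log2 scale. Between NTS/PGE2 and control Rhbg lay 0.72 lower than Rhcg, where the SD of a gap between probe sets of the same gene was 0.18.

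Foxi1 read 9.23 in NTS/PGE2 kidney, 8.66 in NTS kidney and 9.23 in control kidney. The NTS value was 1.49-fold below both others, whose values were exactly equal. Car2 encodes the cytosolic carbonic anhydrase of intercalated cells, and principal cells, proximal tubule and red blood cells make it too. It read 11.67 in NTS/PGE2 kidney, 11.67 in NTS kidney and 11.79 in control kidney. Its difference of -0.12 between NTS and control was smaller than the probe set SD of 0.19.

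Of 13 other carbonic anhydrase genes, 1 was at least 2-fold lower and 0 at least 2-fold higher for NTS versus control, and the median was -0.14. Only 9 of the 13 were bright enough for the filter, while the median covers all 13. Car6 and Car10 lay below the 25th percentile of every array. Car12, a membrane form of the collecting duct and other tubule cells, read 11.26 in NTS/PGE2 kidney, 10.73 in NTS kidney and 11.68 in control kidney. Car8 differed by -0.97 and Car5a by -0.80 for NTS versus control. The gene past 2-fold was Car3, a form of fat and muscle, at 7.74 in NTS/PGE2 kidney, 7.25 in NTS kidney and 12.61 in control kidney. Fat genes were high on the control array alone: the brown fat gene Ucp1 read 5.91 in NTS/PGE2 kidney, 5.72 in NTS kidney and 11.84 in control kidney, and Adipoq read 4.88, 4.70 and 9.18 on the same arrays. Both comparisons with control therefore involve an array with fat RNA, whose part in the values of the 10 genes was not tested. The comparison of NTS/PGE2 with NTS does not involve that array.

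A list of other genes of intercalated cells held 19 measured genes of 20. For NTS versus control, 9 of them were at least 2-fold lower, 0 were at least 2-fold higher and the median was -0.67 on the log2 scale. For NTS/PGE2 versus NTS, 3 were at least 2-fold higher, 0 at least 2-fold lower, and the median was 0.68. The same genes had a median of -0.02 for NTS/PGE2 versus control, with 0 past 2-fold.

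Genes linked to type A cells included Aqp6, an intracellular water and anion channel, which read 9.62 in NTS/PGE2 kidney, 8.64 in NTS kidney and 9.74 in control kidney. Kit, a receptor tyrosine kinase, differed by -0.57 for NTS versus control, and P2ry14, the receptor for UDP-glucose, by -1.25. The P2ry14 value on the NTS/PGE2 array was 0.57 log2 units below control. Genes linked to type B cells included Insrr, an alkali-sensing receptor, at 8.52 in NTS/PGE2 kidney, 7.10 in NTS kidney and 8.79 in control kidney. Oxgr1, the alpha-ketoglutarate receptor, read 9.04 in NTS/PGE2 kidney, 7.63 in NTS kidney and 9.54 in control kidney. Slc4a9, an exchanger of the blood side of type B cells, read 10.57 on all 3 arrays. Genes of both types were among those past 2-fold for NTS versus control.

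The others at least 2-fold lower were Stap1, an adaptor protein, at -1.79, the proton-potassium pump gene Atp4a at -1.21, the chloride channel subunit gene Bsnd at -1.17, Adgrf5, an adhesion receptor that endothelium also makes, at -1.10, and the adhesion protein gene Hepacam2 at -1.07. Whether other kidney cells gave part of these values, that of Bsnd included, cannot be told from total RNA. In NTS kidney Stap1 was dimmer than the 25th percentile of probe sets and may be background. Insrr, at 7.10, and P2ry14, at 6.74, also lay below the NTS array's median of 7.11. For NTS versus control, Stap1, Insrr and P2ry14 therefore passed the filter through the control array alone. Insrr passed it for NTS/PGE2 versus NTS through the NTS/PGE2 array alone. The 3 genes at least 2-fold higher for NTS/PGE2 versus NTS were Atp4a at 1.44, Insrr at 1.42 and Oxgr1 at 1.41. Of the 19, 14 were below 0, 1 was equal and 4 were above 0 for NTS versus control. Those above were Tmem213, at 10.53 in NTS kidney and 10.13 in both others, Kcnma1 at 0.21, Slc4a8 at 0.18 and Atp12a at 0.02. Kcnma1 and Atp12a, at 6.78 and 6.05 in NTS kidney, were too dim for the filter.

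Of 15 principal cell genes, 11 were below 0, 2 above and 2 equal for NTS versus control, with 5 at least 2-fold lower and a median of -0.56. Scnn1a, at 0.33, and Kcne1, at 0.21, were the genes above 0. Of 15 loop and distal convoluted tubule genes, 14 were below 0 and 1 above, with 7 at least 2-fold lower and a median of -0.80; the largest differences were in Egf at -3.10, Pvalb at -2.60, Ppp1r1a at -1.61 and the claudin gene Cldn10 at -1.50. Among principal cell genes the largest differences were in the water channel gene Aqp4 at -2.62, the potassium channel gene Kcnj1 at -1.94 and the water channel gene Aqp2 at -1.74, each past that of Rhbg at -1.69, and in Hsd11b2 at -1.64. Between NTS/PGE2 and NTS the medians were 0.38 for principal cell genes and 0.74 for loop and distal genes, with 5 and 7 at least 2-fold higher; 4 of the principal cell genes were below 0 there. Of the genes past 2-fold, Aqp4, Avpr2 and Pvalb read 7.00, 6.96 and 5.81 in NTS kidney, below that array's median of 7.11. In both comparisons they passed the filter through the other array alone, and Pvalb may be near background. Total kidney RNA does not show whether other cells gave part of a value, that of Kcnj1 included. The medians of the intercalated cell genes, -0.86 and 0.78, lay near those of the loop and distal genes, and the difference between lists was not tested.

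**Figure D4:**
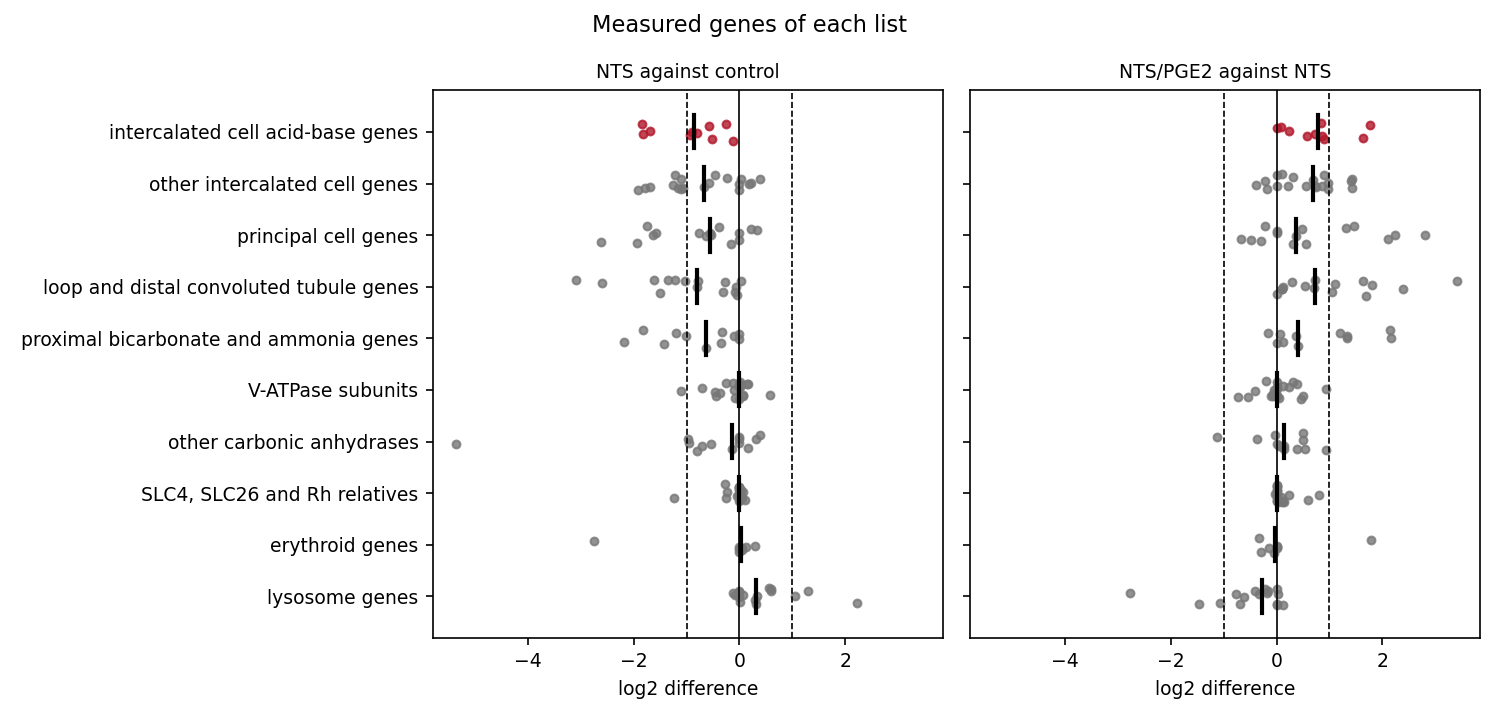
Log2 difference (horizontal axis) of every measured gene of each list for NTS versus control and for NTS/PGE2 versus NTS; each point is a gene, the black bar is the list's median and dashed lines mark 2-fold. Points are spread vertically for legibility, and the 10 acid-base genes, in red, have medians of -0.86 and 0.78.

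The shape over the 3 arrays was compared with that of 11290 other genes, by the Euclidean distance of each gene's 2 differences from control to the median pair of the 10 genes, -0.86 for NTS and -0.11 for NTS/PGE2. The nearest 8 were Tmem179b, Timp3, Pcyt2, Ncbp2, Pds5b, Scly, Rida and Gcdh, at distances of 0.014 to 0.037. Among the 10 genes Slc26a7 was nearest at 0.064, and 37 other genes lay nearer than it; Atp6v1b1 followed at 0.084 and Slc26a4 at 0.087. Rhbg was farthest at 1.07, with Slc4a1 at 1.00 and Rhcg at 0.97. Of the other genes, 74.7% lay nearer than Rhbg, 70.3% nearer than Slc4a1 and 67.8% nearer than Rhcg. The median pair therefore does not describe these 3 genes. With 3 arrays many genes take such a shape.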

How the data were processed

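Values were deposited as log2 numbers that the authors obtained by RMA in Affymetrix Expression Console, per the submitters' processing notes; no version and no genome build is given in the sources used here. Background correction is part of RMA, which also makes equal the arrays' distributions and summarises each probe set by median polish. Scanner values were not analysed here.

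Of 35556 probe sets, the platform annotation gave 21789 a single gene symbol and 1621 several, and left 12146 unnamed here; probe sets of the last 2 kinds were left out. The mean over a gene's probe sets was taken, for 19938 genes, of which 999 had several. Upstream sequences came from RefSeq, GRCm38.p6. Differences, counts and medians were computed with Python 3.11.15, pandas 2.3.3 and numpy 2.4.6, and the calculation was checked on simulated data.

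The 10 genes, the 9 lists of 151 genes (136 measured), the rules and the motifs were chosen with earlier results of these data known. Named from each list were up to 4 genes with the largest NTS difference, all intercalated cell genes past 2-fold, the widely expressed pump relatives, and the 8 genes nearest in pattern. Others named were chosen after their values were seen. Among them were Kit, Slc4a9, Slc4a2, Kel, Rhag, Atp6v0a2, Tcirg1, Atp6v0d2, Slc38a3 and the genes against a list's direction. Alternatives were the filter, the probe set rule, the scaling, the size rule and leaving out the red cell genes Slc4a1 and Car2.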

Additional observations from a re-analysis of the deposited data

How the results depend on the processing

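The median difference of the 10 genes kept its direction under all 6 alternatives of filter, probe set rule, scaling and leaving out Slc4a1 and Car2, at -0.86 to -0.84 for NTS versus control, 0.76 to 0.81 for NTS/PGE2 versus NTS and -0.14 to -0.07 for NTS/PGE2 versus control. The filter and probe set rules cannot move it, since all 10 genes pass and have 1 probe set. Leaving out Slc4a1 and Car2 cannot move it either for NTS versus control or NTS/PGE2 versus NTS. There the 2 genes lie on opposite sides of the median. For NTS/PGE2 versus control it gave -0.09. Under centring, the 2 differences that were exactly 0, Car2 for NTS/PGE2 versus NTS and Foxi1 for NTS/PGE2 versus control, took the sign of the shift, which was at most 0.04 in size; no other sign among the 10 genes turned. At 1.5-fold, 6 of the 10 genes were lower for NTS versus control, 6 higher for NTS/PGE2 versus NTS, and 1, Rhbg, lower for NTS/PGE2 versus control. Without Slc4a1 and Car2, 1 gene was past 2-fold for NTS/PGE2 versus NTS, by construction.

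Over all genes tested, 956 were past 2-fold for NTS versus control, against 2304 at 1.5-fold and 361 at 3-fold. For NTS/PGE2 versus NTS these were 870, 2212 and 308, and for NTS/PGE2 versus control 83, 312 and 36, with 48 under the filter at the 75th percentile. No paired analysis was possible because each group has 1 array. Without scanner values, signal over background could not be set for any probe.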

Other observations

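A list of proximal tubule genes, drawn up for bicarbonate and ammonia handling, had 11 measured members. For NTS versus control 5 of them passed 2-fold downwards and 0 upwards, and the median was -0.63. Of these 5, 3 transport other solutes: the dicarboxylate transporter gene Slc13a2 at -1.83, the phosphate transporter gene Slc34a1 at -1.43 and the glutamate transporter gene Slc1a1 at -1.01. Car14, a membrane carbonic anhydrase, read 10.14 in NTS/PGE2 kidney, 8.00 in NTS kidney and 10.19 in control kidney. Slc9a8, a sodium-proton exchanger gene, read 11.69 in NTS/PGE2 kidney, 9.53 in NTS kidney and 10.73 in control kidney. Among the genes that handle bicarbonate or ammonia, Glud1 differed by -0.11, Car4 by -0.32 and the sodium-proton exchanger gene Slc9a3 by -0.34. Slc38a3, of the same list, differed by -0.63 for NTS versus control and by -0.51 for NTS/PGE2 versus control. Pck1, a gluconeogenesis enzyme that uses the carbon left once glutamine has given up its ammonia, read 13.45 on all 3 arrays, and Slc4a4, the sodium-bicarbonate exit of the proximal tubule, read 12.95 on both the NTS and control arrays.

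Lysosomes use the widely expressed V-ATPase subunits. Of 16 measured lysosome genes, 11 were above 0, 2 below and 3 equal for NTS versus control; 3 were at least 2-fold higher, 0 at least 2-fold lower, and the median was 0.31. Cathepsin D (Ctsd) read 12.02 in NTS/PGE2 kidney, 13.49 in NTS kidney and 12.19 in control kidney. Scarb2, a lysosomal membrane protein gene, differed by 1.06, Gla by 0.60 and Cd68, of macrophage lysosomes, by 2.23. The relation of these values to Atp6v0a1, at 0.58, was not tested.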
